A study of Mus musculus with 6 samples.

Results

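The Hox genes encode homeodomain transcription factors and lie in 4 clusters, Hoxa on chromosome 6, Hoxb on 11, Hoxc on 15 and Hoxd on 2 of the mouse genome. The members described here are all probe sets of the array whose annotation, updated to current names, gave exactly 1 gene symbol made of Hoxa, Hoxb, Hoxc or Hoxd and a number. This rule used names only and no measured value. It found 38 of 12422 probe sets. They name 31 of the 39 Hox genes of the RefSeq table, and 31 of 8251 genes named on the array. Genes with the same number in different clusters descend from one ancestral gene and are called a paralogue group.

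Order along a Hox cluster follows order along the body axis: low-numbered genes are active from the hindbrain backwards, high-numbered genes only towards the tail. Hox proteins bind DNA together with TALE homeodomain cofactors of the Pbx, Meis and Pknox families. In the developing kidney, the Hox11 genes are known for the metanephric mesenchyme, where they are needed for Six2 and Gdnf, the Hox10 genes for the stroma, and Hoxb7 for the ureteric bud, in which its promoter is widely used to drive transgenes.

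RNA came from whole metanephric kidneys of mouse embryos at E14.5 (Theiler stage 22), measured on 6 Affymetrix MG_U74Av2 arrays. Each of 4 wild-type samples pooled 2 kidneys and is labelled strain CD-1. Each of 2 mutant samples pooled 8 to 10 kidneys from 4 to 5 embryos with the Wnt4tm1Amc allele and is labelled strain 129, although the protocols of all 6 name matings of CD-1 mice. Wnt4 is a secreted signal without which the kidney mesenchyme does not turn into nephron epithelium. The comparison asked which genes depend on that step, the forming of renal vesicles and what grows from them. Genotype, strain label and pool size cannot be told apart in this design, and the sex of the embryos is labelled unknown. Nothing in the labels says how many litters stand behind the pools, so the p-values measure only the spread between these pools.

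The arrays had been scaled alike: after trimming 2% at each end, mean signals were 500.27 to 500.29. Median signals ran from 171.5 to 190.1. The Wnt4 probe set, the check of the labels, gave 829, 739, 946 and 699 on the wild-type arrays (replicates 1 to 4 in this order here and for every gene) and 74.2 and 34.5 on the mutant arrays (replicates 1 and 2), a difference of -3.59 (limma adjusted p = 6.11e-05). The middle probe set of the BioB spike-in control, a bacterial RNA added to each hybridization, was lower on the mutant arrays. Its difference was -0.86 on the log2 scale (limma without a variance trend, adjusted p = 0.0432 over 66 control probe sets). Other BioB probe sets are not given here, and the part of this control in differences of dim genes was not tested.

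The plot of differences by cluster and paralogue number gives the layout of the data. Differences are mutant minus wild type on the log2(signal + 16) scale, which understates changes of dim genes. A probe set was tested where its signal exceeded its array's 40th percentile (101 to 110) on at least 2 arrays. This left 25 Hox probe sets of 24 genes, and 13 fell below it. Hoxc5 was kept by both mutant arrays and 1 wild-type array, and the other 24 by at least 2 wild-type arrays. Another 7 genes had probe sets below the filter only, 2 (Hoxd3 and Hoxd4) shared probe sets with several symbols, and the rest were not analysed here.

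**Figure D1:**
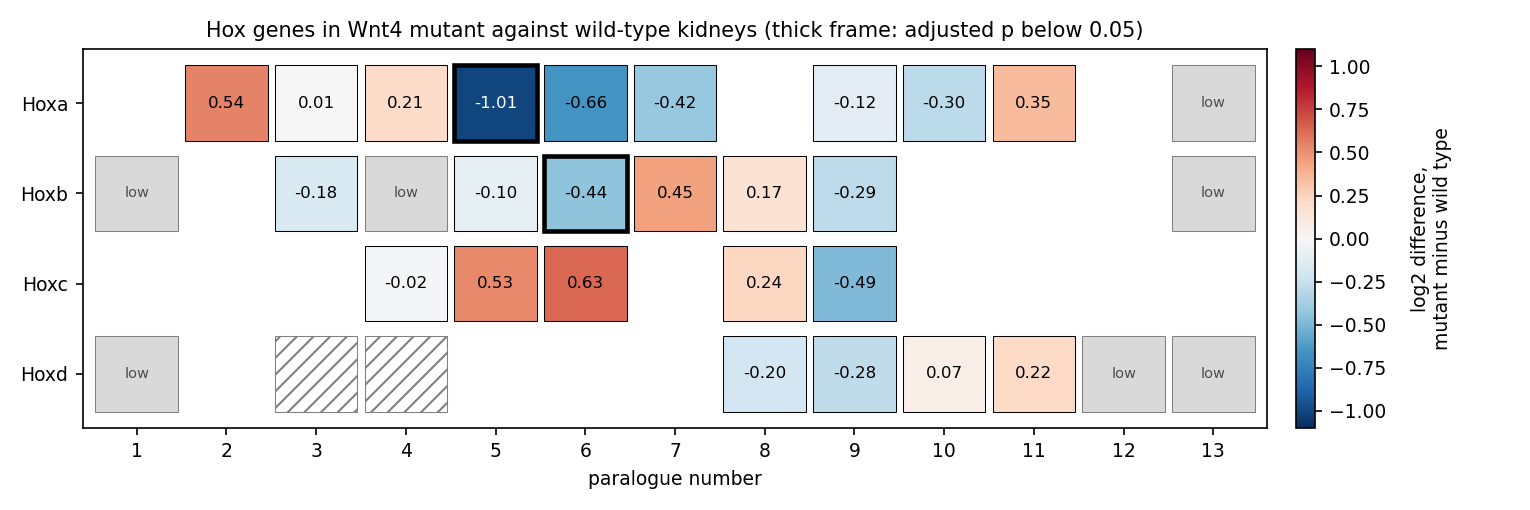
Log2 difference (mutant minus wild type; colour and printed value) of each mouse Hox gene, by cluster (rows) and paralogue number (columns), from its brightest tested probe set (by mean log2 value). A thick frame marks adjusted p below 0.05, grey cells marked low had signals below the filter, and hatched cells shared probe sets with several symbols; positions left blank are not shown. Hoxa5 (-1.01) and Hoxb6 (-0.44) are framed, and the largest positive difference is 0.63 for Hoxc6.

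Hoxa5 and Hoxb6 fell in Wnt4 mutant kidneys, and no Hox probe set rose (limma, Benjamini-Hochberg adjusted over 7981 probe sets, threshold 0.05). These were 2 lower and 0 higher of 25 tested. Among all tested probe sets 6.11% were lower and 4.65% higher, 10.8% in either direction, so the Hox share lay near the background. Without adjustment, 7 Hox probe sets had p under 0.05, 4 lower and 3 higher, which is 28.0% against 26.5% of all tested. For 7 of the 25 the mutant values fell outside the range of the wild type (5 below, 2 above), as they did for 37.4% of all tested. The median difference was -0.10 for the Hox probe sets and 0.02 for all tested, with 14 negative and 11 positive. Of the 23 that did not pass, 17 had a 95% interval of the difference (limma, not adjusted for multiple tests) inside -1 to 1, so that a 2-fold change lay outside it; for the other 6 the arrays do not bound the change that closely.

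The promoters of the gene that fell most, Hoxa5, and of the tested Hox11 genes, Hoxa11 and Hoxd11, are shown so that the genes with the most negative difference and with positive ones can be read side by side. Each runs from 250 bases before to 50 after an annotated start (RefSeq, GRCm38.p6), 5′ to 3′ on the gene's strand, and Hoxd11 has 2 annotated starts. Capitals mark matches, on either strand, to the Meis motif TGACAG, to TGATNNAT for Pbx with Hox, to AGGTCA as the half-site of retinoic acid receptors, or to TATAAA, which TBP binds. No matches overlapped each other in these sequences.
Hoxa5, chr6:52204538-52204837, minus strand: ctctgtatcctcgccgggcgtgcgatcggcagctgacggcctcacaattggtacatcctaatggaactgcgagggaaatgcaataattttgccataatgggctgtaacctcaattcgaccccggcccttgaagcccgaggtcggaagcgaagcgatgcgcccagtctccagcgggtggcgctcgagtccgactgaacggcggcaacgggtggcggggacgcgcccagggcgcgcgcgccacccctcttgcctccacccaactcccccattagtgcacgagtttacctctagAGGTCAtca
Hoxa11, chr6:52245761-52246060, minus strand: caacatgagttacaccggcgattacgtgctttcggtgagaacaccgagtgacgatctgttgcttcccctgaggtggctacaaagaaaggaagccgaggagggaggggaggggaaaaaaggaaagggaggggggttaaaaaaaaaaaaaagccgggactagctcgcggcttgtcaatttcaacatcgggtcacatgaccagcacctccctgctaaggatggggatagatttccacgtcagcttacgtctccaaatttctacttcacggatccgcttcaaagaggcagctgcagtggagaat
Hoxd11 first start, chr2:74679308-74679607, plus strand: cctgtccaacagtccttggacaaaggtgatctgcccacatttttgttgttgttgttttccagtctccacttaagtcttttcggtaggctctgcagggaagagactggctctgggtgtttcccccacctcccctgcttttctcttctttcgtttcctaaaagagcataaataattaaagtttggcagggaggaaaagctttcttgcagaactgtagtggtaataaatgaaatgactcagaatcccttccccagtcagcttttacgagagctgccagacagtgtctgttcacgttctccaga
Hoxd11 second start, chr2:74682073-74682372, plus strand: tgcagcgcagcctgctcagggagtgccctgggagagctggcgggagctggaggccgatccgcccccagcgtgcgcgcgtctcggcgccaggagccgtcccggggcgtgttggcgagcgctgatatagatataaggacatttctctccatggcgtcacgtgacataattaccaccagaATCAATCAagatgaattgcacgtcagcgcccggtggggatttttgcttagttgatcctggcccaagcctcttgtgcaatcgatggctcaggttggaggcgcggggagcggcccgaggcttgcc

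Hoxa5 had 1 AGGTCA match, which begins 42 bases after the start, and the second Hoxd11 start had 1 TGATNNAT match, whose first base lies 73 bases before it. None of the 4 motifs matched in the Hoxa11 window or at the first Hoxd11 start. The table held promoters for 20 of the 31 member genes (22 sequences), but none for Hoxb6. Over all 32851 promoters of that length 16.3% held AGGTCA, 8.85% TGATNNAT, 19.2% TGACAG and 13.6% TATAAA, and among the 22 Hox promoters 5, 4, 2 and 3 did. These are matches of letters, not measured binding sites. The Hox promoters had a median GC content of 58.7% against 52.7% for all, and the Hoxa5 window had 61.7% with 29 CG pairs.

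Hoxa5, a regulator of lung and axial skeleton patterning, read 414, 293, 385 and 342 in the wild type and 191 and 148 in the mutant. Both mutant pools lay below every wild-type pool. The signal fell by 1.01 on the log2 scale (359 ± 52.6, SD, n = 4, to 169 ± 30.5, SD, n = 2; SE 0.19, 95% interval -1.45 to -0.58, limma adjusted p = 0.0112), which is 2.02-fold lower. Of the 25 tested Hox probe sets it was the only 1 with a difference of at least 1 in size. Leaving out mutant replicate 2 gave -0.85 and no call (adjusted p = 0.117), in a fit that assumes the lone mutant array to vary like the others.

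Hoxb6, a central gene of the Hoxb cluster, read 1104, 1123, 988 and 1146 in the wild type and 779 and 820 in the mutant. The groups did not overlap, and the change was small beside that of Hoxa5. It fell by 0.44 (1090 ± 70.3, SD, n = 4, to 799 ± 28.6, SD, n = 2; SE 0.10, 95% interval -0.67 to -0.20, limma adjusted p = 0.0300), 1.36-fold lower. This call was lost when wild-type replicate 1 or 2 or either mutant replicate was left out (-0.47 to -0.40, adjusted p = 0.0578 to 0.211), when the variance model had no trend (adjusted p = 0.0682) and when wild-type replicates 2 and 4 were both dropped (-0.38, adjusted p = 0.0700). With a replicate block it had -0.47 (adjusted p = 0.0600). Wild-type replicates 3 and 4 have no mutant of the same number, so the block takes them out of the comparison.

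Markers of nephron epithelium were lower on the same arrays on which Hoxa5 and Hoxb6 were lower. All 10 tested of 14 listed fell, and their summed signal was 5380 to 7133 in the wild type and 749 to 917 in the mutant. Ptpro, Slc34a1, Dll1, Pdzk1, Slc12a1 and Fgf8 among them exceeded the filter level on wild-type arrays only. They were thus tested only through the group where they were high. Renal stroma markers rose for 7 of 9 (summed signal 12560 to 14342 against 26474 to 27142), and none of the 9 fell (limma). The other 2 were Tcf21 with 0.13 (adjusted p = 0.368) and Pdgfrb, which read 264 to 430 in the wild type and 207 and 218 in the mutant (-0.68, unadjusted p = 0.00968, limma adjusted p = 0.0713). Skeletal muscle markers rose for 7 of 12 (1944 to 2570 against 6462 to 6771). Tnnc1, counted among the 7, exceeded the filter level on the mutant arrays only. Ureteric bud markers rose for 3 of 9 and fell for 1 (limma), with 5 higher and 1 lower at an unadjusted p under 0.05. Their median difference was 0.36, with 0.94 for Gata2 and -0.61 for Calb1. The bud marker Ret, below the filter and not tested, read 30.5 to 104 in the wild type and 8.08 and 8.61 in the mutant (-1.79). Endothelial markers fell for 3 of 8. None of 6 neural and chromaffin, 2 adrenal and gonadal or 2 cartilage genes passed (limma), with 3, 1 and 1 of them higher at an unadjusted p under 0.05. Col2a1 and Acan of cartilage matrix and Star and Cyp11a1 of steroid synthesis were below the filter, and the groups overlap for each of them. The cartilage marker Matn1, also below it, read 12.2 to 14.3 in the wild type and 63.6 and 33.5 in the mutant (1.09). The part of these cell types in the Hox values was not tested, and in whole kidneys fewer cells of a type and less RNA per cell cannot be told apart.

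**Figure D2:**
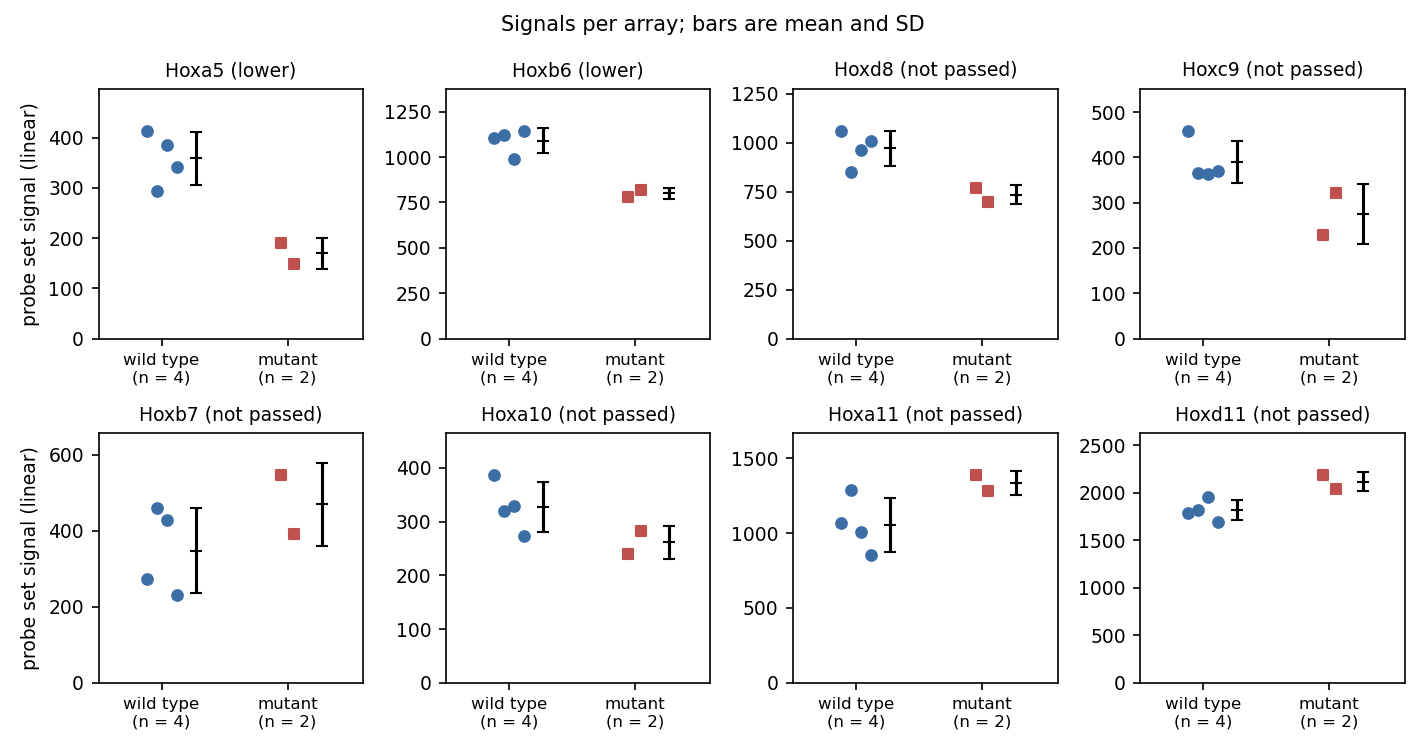
Linear probe set signal on each array for 8 Hox genes (for Hoxd8 the probe set with the lower difference), wild type as circles (n = 4) and Wnt4 mutant as squares (n = 2), with mean and SD beside them, and with the call in each title. The mutant squares of Hoxa5 (191 and 148) and Hoxb6 (779 and 820) lie below all wild-type circles, those of Hoxd11 (2189 and 2044) lie above them without passing, and those of Hoxb7 and Hoxa11 overlap.

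In the Hoxa cluster 9 genes were tested, and only Hoxa5 passed. Differences were 0.54 for Hoxa2, 0.01 for Hoxa3 and 0.21 for Hoxa4, then -1.01 for Hoxa5, -0.66 for Hoxa6, -0.42 for Hoxa7, -0.12 for Hoxa9 and -0.30 for Hoxa10, and 0.35 for Hoxa11. The lowest value thus stood at Hoxa5, and the 4 tested genes between it and Hoxa11 had negative differences too, none of which passed (adjusted p = 0.332 to 0.727). Hoxa6 and Hoxa7, the neighbours of Hoxa5 on its Hoxa9 side, rested on discordant mutant pools. Hoxa6 read 53.0 and 174 in the mutant against 137 to 212 in the wild type, and Hoxa7 read 38.0 and 129 against 49.0 to 198. Without mutant replicate 1 both of these probe sets turned positive (0.075 and 0.29). A second Hoxa6 probe set, below the filter, read 101, 16.8, 65.8 and 239 in the wild type and 22.0 and 12.9 in the mutant (-1.51), and its groups overlap. The tested Hoxa6 probe set has a reduced probe choice by its suffix.

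Hoxa2, a hindbrain and neural crest regulator and the most anterior gene tested here, read 128, 175, 141 and 174 in the wild type and 220 and 242 in the mutant. Both mutant pools lay above all wild-type pools, but the difference of 0.54 (95% interval 0.04 to 1.04) had an adjusted p of 0.154. Hoxa4 had 4 probe sets, and they disagreed. The tested one, a set with a reduced probe choice by its suffix, read 733 to 1123 in the mutant against 748 to 873 in the wild type (0.21, adjusted p = 0.483). The other 3 were below the filter, with differences of -1.05, 1.36 and -0.21.

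In the Hoxb cluster 6 genes were tested, with Hoxb6 the 1 call. Its tested neighbours differed from it in size or sign: Hoxb5 had -0.10 (adjusted p = 0.711) and Hoxb7 0.45 (adjusted p = 0.357). Hoxb5 read 418 to 532 in the wild type and 440 to 447 in the mutant, inside the wild-type range. Hoxb3 and Hoxb9 had -0.18 and -0.29 and Hoxb8 0.17 (adjusted p = 0.468 to 0.728). The tested Hoxb8 probe set has a reduced probe choice by its suffix, and a second one, below the filter, had -0.36. Within each array, the log2 gap between Hoxb6 and Hoxb5 was 0.93 to 1.42 in the wild type and 0.78 and 0.87 in the mutant (change of the mean gap -0.34). The gaps did not overlap, but this pair, like the others set side by side below, was chosen after its values were seen and has no test.

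Hoxb7, whose promoter marks the ureteric bud, read 272, 460, 427 and 232 in the wild type and 547 and 392 in the mutant. The wild-type pools were spread widely, and the groups overlap. Its difference of 0.45 has a 95% interval of -0.19 to 1.09. A further probe set annotated to both Hoxb8 and Hoxb7, outside the rule, went the other way (-0.44, adjusted p = 0.340), so the probe sets give no common direction for Hoxb7 or Hoxb8.

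None of the 5 tested Hoxc genes passed. Hoxc5 and Hoxc6 had 0.53 and 0.63 with 95% intervals of -0.34 to 1.41 and -0.49 to 1.76, on signals of 34.7 to 157 that lie near the filter level. A replicate block left Hoxc6 at 0.023, and dropping wild-type replicate 4 left it at 0.38. Hoxc5 had 0.29 without mutant replicate 1, and none of these passed. Hoxc4 had -0.02 and Hoxc8, a gene of the thoracic axis, 0.24 (adjusted p = 0.976 and 0.619). Hoxc9 read 459, 366, 362 and 370 in the wild type and 229 and 322 in the mutant. Its pools did not overlap, and its difference of -0.49 (95% interval -0.90 to -0.08) had an adjusted p of 0.124. Leaving out mutant replicate 1 gave -0.25 and leaving out mutant replicate 2 gave -0.72. Its suffix marks a probe set that can bind members of a sequence family, so its signal may not be from Hoxc9 alone.

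In the Hoxd cluster the 5 tested probe sets of 4 genes had small differences, and none passed. Hoxd8 came nearest: 1 probe set read 1063, 850, 963 and 1011 in the wild type and 769 and 700 in the mutant (-0.39, 95% interval -0.66 to -0.12, adjusted p = 0.0702). It passed with array weights (adjusted p = 0.0302), without wild-type replicate 2 (-0.45, adjusted p = 0.0430) and when replicates 2 and 4 of that group were both dropped (-0.46, adjusted p = 0.0472). The second Hoxd8 probe set read 1184 to 1475 in the wild type and 1202 and 1185 in the mutant, inside that range (-0.20, adjusted p = 0.293). Hoxd9 had -0.28, Hoxd10 0.07 and Hoxd11 0.22. The annotation ties the Hoxd9 and Hoxd10 probe sets to the same source sequence entry, so their assignment to separate genes is uncertain.

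**Figure D3:**
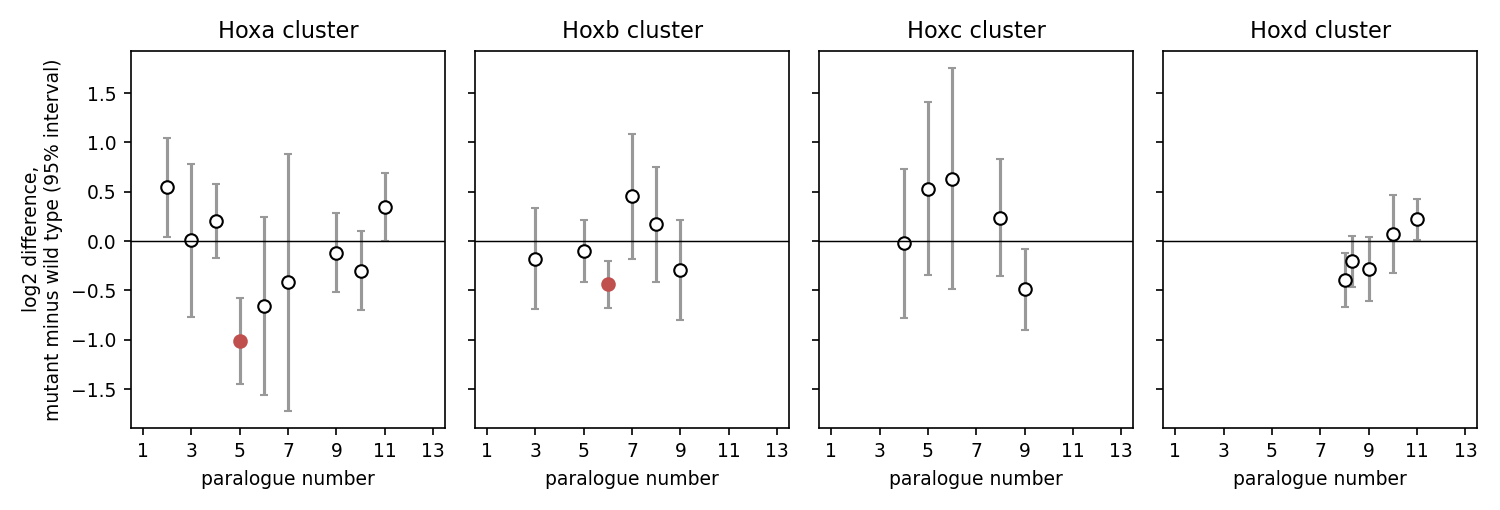
Log2 difference (mutant minus wild type) of each tested Hox probe set with its unadjusted 95% interval against paralogue number, in a panel for each cluster; the second Hoxd8 probe set is drawn slightly to the right. Filled points passed at adjusted p below 0.05. Hoxa5 is the lowest point of its panel at -1.01, the Hoxd points run from -0.39 for a Hoxd8 probe set to 0.22 for Hoxd11, and most intervals cross 0.

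No single trend with paralogue number was seen across the clusters. Over the 24 tested genes, Spearman's rho of the difference with paralogue number was -0.11, and within clusters it was -0.20 over 9 Hoxa, 0.09 over 6 Hoxb, -0.30 over 5 Hoxc and 0.80 over 4 Hoxd genes. These are descriptions across genes that share the same 6 arrays. By position, 3 anterior probe sets (groups 1 to 3) had a median of 0.01, 14 central ones (4 to 8) -0.06 and 8 posterior ones (9 to 13) -0.20. Both calls were central, 2 of 14 against 0 of 3 and 0 of 8, and the difference between these shares was not tested.

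Within a paralogue group the differences varied in sign and size. In group 5, Hoxa5 had -1.01, Hoxb5 -0.10 and Hoxc5 0.53. The within-array log2 gap of Hoxa5 to Hoxb5 was -0.83 to -0.12 in the wild type and -1.16 and -1.48 in the mutant, without overlap. This is a description, as for the pair above. In group 6, Hoxb6 had -0.44, Hoxa6 -0.66 and Hoxc6 0.63. The gap of Hoxb6 to Hoxa6 was 2.30 to 2.72 in the wild type and 3.53 and 2.13 in the mutant, with overlap. That of Hoxb6 to Hoxc6 was 3.11 to 4.52 in the wild type and 2.46 and 2.78 in the mutant, without overlap. Gaps were computed for 7 chosen pairs, not all of them given here. In all of them but Hoxb6 to Hoxa6 the mutant gaps lay outside the wild-type range. The share over other pairs was not computed, so the lack of overlap cannot be read as particular to a pair. In group 9 all 4 genes had negative differences, Hoxa9 -0.12, Hoxb9 -0.29, Hoxc9 -0.49 and Hoxd9 -0.28, and none passed. Hoxa9 turned slightly positive (0.016) without mutant replicate 1.

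Both tested genes of group 11 had positive differences without passing. Hoxa11 read 1065, 1289, 1009 and 856 in the wild type and 1390 and 1281 in the mutant. The second mutant pool lies just below wild-type replicate 2, so the groups overlap. The difference was 0.35 (1055 ± 179, SD, n = 4, to 1336 ± 77.2, SD, n = 2; 95% interval 0.01 to 0.69, limma adjusted p = 0.180). Hoxd11 read 1791, 1822, 1956 and 1696 in the wild type and 2189 and 2044 in the mutant. Here both mutant pools lay above all wild-type pools, with a difference of 0.22 (1816 ± 108, SD, n = 4, to 2117 ± 102, SD, n = 2; 95% interval 0.01 to 0.43, limma adjusted p = 0.168). The upper ends of these intervals lie below a 2-fold rise, and their lower ends lie near 0.

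Transcripts antisense to Hoxa11 have their own annotation, Hoxa11os. Its brighter probe set read 476 to 566 in the wild type and 416 and 635 in the mutant (-0.02, adjusted p = 0.952), and the dimmer one had 0.50 (adjusted p = 0.448). No call was made on either strand of this locus.

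Neither tested Hox10 gene passed. Hoxa10 read 387, 319, 330 and 272 in the wild type and 240 and 283 in the mutant, with overlap (-0.30, 95% interval -0.70 to 0.10, adjusted p = 0.332). Hoxd10 read 455, 609, 415 and 589 in the wild type and 554 and 519 in the mutant, inside the wild-type range (0.07, 95% interval -0.33 to 0.46, adjusted p = 0.842). The stroma marker Foxd1 rose by 1.75 in the same pools (limma adjusted p = 4.93e-05).

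The most posterior and most anterior genes gave little signal. The 3 probe sets of group 13 read 7.60 to 12.2 for Hoxa13, 21.2 to 85.4 for Hoxb13 and 6.55 to 10.6 for Hoxd13 in the wild type, and were below the filter on all 6 arrays. The 2 probe sets of Hoxd1 read 9.29 to 85.5 and 27.5 to 45.8 in the wild type. Hoxb1 exceeded the filter only on wild-type replicate 2 (128), Hoxb4 only on wild-type replicate 1 (118), and Hoxd12 (8.29 to 91.8 in the wild type) on none. A low reading on one probe set does not show that a gene was silent.

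Of the cofactors, the TALE gene Meis1 rose while the Pbx genes did not pass. Meis1 read 229, 211, 223 and 268 in the wild type and 699 and 526 in the mutant. The mutant pools lay far above all wild-type pools, a difference of 1.33 (95% interval 0.94 to 1.72, limma adjusted p = 0.00159), and it passed under all 15 alternative settings. Meis2 and Meis3 had 0.72 and 0.77 (adjusted p = 0.0660 and 0.0549), with no overlap between the groups in either. Pbx2 and Pbx3, partners in DNA binding, had 0.04 and 0.05 (adjusted p = 0.844 and 0.801), and Pknox1 had 0.21. Pbx2 showed no overlap either: its mutant readings, 569.5 and 580.5, exceeded a wild-type maximum of 565.8. Both mutant arrays lay above the wild-type range for 18.6% of all tested probe sets. Lack of overlap alone thus does not set Meis2 and Meis3 apart from Pbx2.

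Retinoic acid is a known inducer of Hox genes from the low-numbered end of a cluster, and 4 of the 9 tested genes around it rose, 0 fell and 5 did not pass. The binding proteins Crabp1 and Crabp2 rose by 1.75 and 1.31 (limma adjusted p = 4.93e-05 and 5.76e-04) and the synthesis enzymes Aldh1a2 and Aldh1a3 by 0.90 and 0.63 (adjusted p = 0.00252 and 0.0319). Crabp1 read 761 to 950 in the wild type and 2972 and 2823 in the mutant. The receptor gene Rxrb had 0.27 (adjusted p = 0.306). Beside these, the 3 anterior Hox probe sets tested had 0.54, 0.01 and -0.18. Probe sets annotated to both Hoxd4 and Hoxd3, outside the rule, had 0.73 and 0.49 (limma adjusted p = 0.138 and 0.315). A link between the retinoic acid genes and these values was not tested.

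**Figure D4:**
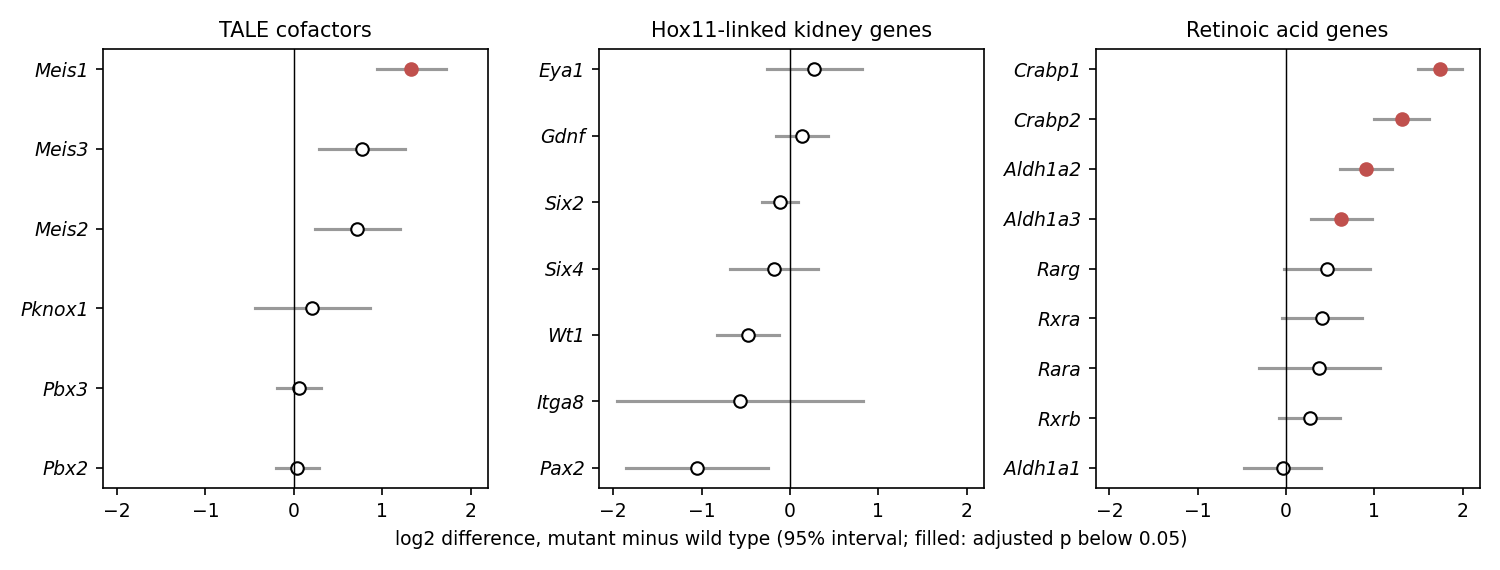
Log2 difference (mutant minus wild type, points) with unadjusted 95% interval (lines) for tested genes of 3 lists: TALE cofactors, kidney genes linked to the Hox11 group and retinoic acid genes, each at its brightest tested probe set. Filled points passed at adjusted p below 0.05: Meis1 (1.33) in the first panel, none in the second, and Crabp1, Crabp2, Aldh1a2 and Aldh1a3 in the third.

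None of 7 tested kidney genes that act with or after the Hox11 group passed (limma; 2 lower and 0 higher at an unadjusted p under 0.05), and their median was -0.18. Six2, which keeps nephron progenitors undifferentiated, had -0.11 (95% interval -0.32 to 0.09). Gdnf, the ligand that draws out the ureteric bud, had 0.14 (95% interval -0.16 to 0.43). Eya1 had 0.27 at its brighter probe set and -0.08 at the other, and Pax2 had -1.05 (95% interval -1.86 to -0.25, adjusted p = 0.0961).

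Of the Hox relatives outside the clusters, Meox2, a homeobox gene of somite and mesenchyme, fell by 0.94 (limma adjusted p = 0.0191). It read 243 to 279 in the wild type and 108 and 150 in the mutant, but lost the call without wild-type replicate 1 (-0.90, adjusted p = 0.0569). The call was also lost on leaving out mutant replicate 1 (-0.72, adjusted p = 0.160), on dropping both wild-type replicates 2 and 4 (-0.95, adjusted p = 0.0522) and with a replicate block (-0.996, adjusted p = 0.0683). Meox1 had 0.07 (adjusted p = 0.867), and the other 7 with a probe set, among them Cdx1, Cdx2 and Cdx4, activators of central Hox genes, were below the filter. Chromatin regulators of Hox clusters gave no call. None of 14 Polycomb genes, which silence Hox genes, passed (1 lower and 2 higher at an unadjusted p under 0.05), and neither did any of 5 Trithorax or demethylase genes (0 at an unadjusted p under 0.05). Rbbp7 had 0.22 and Wdr5 -0.11.

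No gene beside the clusters passed at its brightest probe set. Of the 5 nearest protein-coding genes on each side of each cluster in the RefSeq order, 19 were tested and 0 passed (limma; 3 lower and 2 higher at an unadjusted p under 0.05), with a median of 0.05. Beside the Hoxa cluster, Skap2 had 0.18 (adjusted p = 0.540) and Hibadh -0.26 (adjusted p = 0.176). Snx10, also beside it, had -0.68 (adjusted p = 0.0796) and passed without a variance trend (adjusted p = 0.0325) and with array weights (adjusted p = 0.0342). Beside the Hoxb cluster, Copz2 had 0.46 (adjusted p = 0.0676) and passed with array weights (0.45, adjusted p = 0.0439). Cbx1, also beside Hoxb, read 129 to 473 in the wild type and 452 and 413 in the mutant, with overlap (0.93, adjusted p = 0.221). It passed without wild-type replicate 3 (1.28, adjusted p = 0.0400) and with a replicate block (1.59, adjusted p = 0.00385). The block in effect set the mutant against wild-type replicates 1 and 2 only, the lowest for this gene (138 and 129). Mtx2, beside the Hoxd cluster, had -0.24 (adjusted p = 0.110). Dimmer probe sets of Hnrnpa2b1 (0.82) and Ube2z (0.48) passed (limma adjusted p = 0.0190 and 0.0468), and their brighter ones had 0.01 and -0.13.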

How the data were processed

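The authors deposited signals on a linear intensity scale, 1 per probe set, and the submitters' processing notes name GCOS as the software. Its version and settings are, like its background step, not given in the sources used here. Precision is limited by having 6 arrays. Names came from the platform annotation, updated by gene identifier to RefSeq (GRCm38.p6): of 12422 probe sets 10833 had 1 symbol, 396 several and 1193 none here. The 66 control probe sets were left out. An offset of 16 was added before log2 was taken, without normalizing again, and the test covered 7981 probe sets above their array's 40th percentile on at least 2 arrays. The test was limma 3.58.1 in R 4.3.3 (lmFit, eBayes with a variance trend, no covariate, Benjamini-Hochberg over all 7981, threshold 0.05). It was tried on simulated data with changes larger than those of Hoxa5 and Hoxb6, placed in brighter probe sets only. Such data do not show how it performs for smaller changes or dimmer genes. A listed gene stands at its brightest tested probe set (by mean log2).

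Named were all Hox genes, and from each gene list up to 3 genes past the threshold in each direction and the brightest not past it, but marker lists and cluster neighbours are mostly given as counts; others were added after their values were seen. Members and lists were chosen with earlier results of these data known. Alternatives were other offsets, filters, normalization and variance models, array weights, leaving out arrays and a replicate block. Replicate numbers 1 and 2 are shared by the groups, and deviations of same-numbered arrays correlated at 0.00 and -0.02 over probe sets. Replicates 3 and 4 exist in the wild type only, so the block in effect compared replicates 1 and 2 of the groups. An exact two-sided permutation test of 4 against 2 arrays cannot go below p = 0.133 and was not used.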

Additional observations from a re-analysis of the deposited data

Results flagged for a closer look

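In 4 of the 25 tested Hox probe sets, 1 wild-type array lay far from the other 3 by Dixon's criterion, which chance meets in about 1 in 20 groups. The share among all tested probe sets was not computed, so no excess particular to the Hox genes can be read from this count. Wild-type replicate 1 was the high array for Hoxc5 (145) and Hoxc9 (459) and the low array for 1 Hoxd8 probe set (1184), and replicate 3 was the high array for Hoxa4 (873). Without wild-type replicate 1, the probe sets of Hoxc5, Hoxc9 and Hoxd8 did not pass (0.76, -0.41 and -0.28, limma adjusted p = 0.267, 0.232 and 0.130).

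Signals outside the tested Hox probe sets were higher on both mutant arrays than on every wild-type array in 2 cases. The search covered the 13 Hox probe sets below the filter and those of Hoxa11os or with several Hox symbols. Among all tested probe sets 18.6% had both mutant arrays above the wild-type range, so such cases are common on these arrays. A Hoxa4 probe set below the filter read 17.6 to 79.9 in the wild type and 101 and 134 in the mutant (1.36; adjusted p = 0.146 when all probe sets are tested without a filter). A probe set annotated to both Hoxd4 and Hoxd3 read 128 to 283 and 349 and 388 (0.73, limma adjusted p = 0.138).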

How the results depend on the processing

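The count of 2 lower Hox probe sets was 1 without a variance trend and 1 with a replicate block, rose to 3 with array weights, and ran from 0 to 2 when single arrays were left out; 0 were higher in every setting. Over all probe sets, 488 lower and 371 higher became 738 and 613 with array weights, and 188 to 553 and 114 to 448 without single arrays (lower: 320 without wild-type replicate 1, 198 without mutant replicate 1, 188 without mutant replicate 2; higher: 133 and 114 without mutant replicates 1 and 2). Without wild-type replicate 2, alone or together with 4, the count was again 2, but Hoxb6 was replaced by Hoxd8. Without mutant replicate 2 neither Hoxa5 nor Hoxb6 passed. The causes were not tested. Replicate numbers only name the samples: the block gave 362 lower and 341 higher probe sets.

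Over 15 settings, 334 of 364 values for the Hox probe sets kept sign and side of the threshold, 8 lost and 3 gained the call, and 19 changed sign, all of uncalled probe sets. Hoxa3 had -0.0050 with an offset of 64, -0.036 with quantile normalization, -0.071 with array weights, -0.087 with the block, -0.12 without wild-type replicates 2 and 4 and -0.19 to 0.14 without single arrays. The genes named besides Hox, Meox1 and Wdr5 are neighbours of the clusters. With the block, Hoxa7 had 0.19, Hoxc4 0.042, Meox1 -0.079, Hnrnpa2b1 -0.063, Atp5g1 -0.072 and Hnrnpa1 -0.12. Hnrnpa2b1 had -0.023 with array weights and -0.053 without wild-type replicates 2 and 4, where Wdr5 had 0.024. Without single arrays, ranges crossing 0 were -0.096 to 0.51 for Hoxa4, -1.39 to 0.075 for Hoxa6, -1.13 to 0.29 for Hoxa7, -0.25 to 0.016 for Hoxa9, -0.15 to 0.49 for Hoxb8, -0.23 to 0.18 for Hoxc4, -0.027 to 0.15 for Hoxd10, -0.24 to 0.0099 for Wdr5, -0.070 to 0.050 for Hnrnpa2b1, -0.0049 to 0.29 for Atp5g1, -0.29 to 0.031 for Ube2z and -0.016 to 0.14 for Hnrnpa1.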
